A study of Mus musculus with 4 samples.

Results

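The genes described here are 10 liver genes of the acute phase: the orosomucoid genes Orm1, Orm2 and Orm3, the haptoglobin gene Hp, the hemopexin gene Hpx, the inter-alpha-trypsin inhibitor heavy chain genes Itih3 and Itih4, the leucine-rich glycoprotein gene Lrg1, the lipocalin gene Lcn2 and the metalloreductase gene Steap4. They were taken by symbol from the annotation of the arrays. All 10 had 1 probe set each, out of 30827 named genes, and all 10 were among the 18500 genes kept after dim genes were left out. The study measured RNA from male mouse liver around an overdose of acetaminophen, a drug that hepatocytes convert to a reactive metabolite, and concerns the part played in liver regeneration by YAP, a coactivator of transcription that the Hippo kinases restrain. There were 4 arrays: YAP-KO livers taken 24 h after 300 mg/kg acetaminophen by intraperitoneal injection, YAP-KO livers at 0 h, wildtype livers 24 h after the same dose, and wildtype livers at 0 h. The wildtype mice carried floxed Yap1. The 0 h mice were fasted, and the mice given acetaminophen had been fasted before it. Each array held RNA pooled from 3 livers, so there was 1 value per group and no replicate error. The sources used here do not give the driver of the Yap1 deletion, the deleted exons or the cells affected.

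Values are log2 levels as deposited, and a difference of 1 log2 unit is 2-fold. No difference between single arrays carries a p-value or a replicate check, and each pool hides the spread between mice. No liver was taken at 24 h without acetaminophen, so the drug cannot be told apart from time, handling and feeding. Each array had a highest value, from 19.83 to 19.93, that many genes shared. A level within 0.01 of it is called saturated, and a difference from a lower level is then given as at least that size. Yap1 read 6.01 in YAP-KO and 8.24 in wildtype at 24 h, and 6.31 in YAP-KO and 7.54 in wildtype at 0 h. The tissue label was checked with 8 hepatocyte genes: the 7 with a probe set of their own averaged 18.46 in YAP-KO at 24 h, 18.75 in YAP-KO at 0 h, 18.30 in wildtype at 24 h and 18.67 in wildtype at 0 h. Of the 7, 4 were saturated on at least 1 array, so these averages lie near the ceiling and can hide a drop. Over the unsaturated ones the median difference of 24 h minus 0 h was -0.80 in YAP-KO and -0.76 in wildtype.

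Acute phase proteins are plasma proteins whose production by hepatocytes shifts during inflammation and injury. Interleukin 6 and related cytokines act through STAT3, and interleukin 1 and tumor necrosis factor act through NF-kB. C/EBP factors take part in both arms. Orosomucoids carry drugs and lipids and temper immune reactions, haptoglobin and hemopexin bind haemoglobin and heme set free from red cells, and lipocalin 2 withholds iron from bacteria by binding their siderophores.

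Sequence upstream of the start site was at hand for 8 of the 10 genes (RefSeq, GRCm38.p6). The 250 bases before the start are shown for 5 of them, chosen because their levels differed most between the arrays or, for Orm3, because it is the paralog next to Orm2. The windows are chr4:63362199-63362448, plus strand for Orm2, chr4:63355908-63356157, plus strand for Orm3, chr17:56121947-56122196, minus strand for Lrg1, chr2:32387740-32387989, minus strand for Lcn2 and chr5:7960222-7960471, plus strand for Steap4. Each sequence runs 5′ to 3′ on the strand of its gene, and capitals mark matches, on either strand, to 4 motifs of acute phase transcription factors.
Orm2: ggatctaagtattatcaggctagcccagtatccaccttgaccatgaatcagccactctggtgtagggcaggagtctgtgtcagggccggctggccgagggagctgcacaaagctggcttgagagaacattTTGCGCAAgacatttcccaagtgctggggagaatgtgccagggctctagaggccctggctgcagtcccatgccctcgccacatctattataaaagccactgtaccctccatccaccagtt
Orm3: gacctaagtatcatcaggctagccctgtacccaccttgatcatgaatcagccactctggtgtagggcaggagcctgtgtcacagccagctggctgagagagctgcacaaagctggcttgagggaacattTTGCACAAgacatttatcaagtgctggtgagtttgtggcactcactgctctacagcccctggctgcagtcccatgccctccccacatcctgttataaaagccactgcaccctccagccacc
Lrg1: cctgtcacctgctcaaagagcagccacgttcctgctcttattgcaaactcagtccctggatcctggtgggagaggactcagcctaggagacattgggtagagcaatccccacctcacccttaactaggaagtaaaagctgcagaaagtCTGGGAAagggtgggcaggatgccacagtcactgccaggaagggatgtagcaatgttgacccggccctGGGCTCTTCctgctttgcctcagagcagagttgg
Lcn2: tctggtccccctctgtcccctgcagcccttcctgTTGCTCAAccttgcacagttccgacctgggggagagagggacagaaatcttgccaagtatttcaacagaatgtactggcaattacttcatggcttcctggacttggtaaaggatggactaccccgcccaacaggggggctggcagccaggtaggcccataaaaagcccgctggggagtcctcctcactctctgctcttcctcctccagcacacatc
Steap4: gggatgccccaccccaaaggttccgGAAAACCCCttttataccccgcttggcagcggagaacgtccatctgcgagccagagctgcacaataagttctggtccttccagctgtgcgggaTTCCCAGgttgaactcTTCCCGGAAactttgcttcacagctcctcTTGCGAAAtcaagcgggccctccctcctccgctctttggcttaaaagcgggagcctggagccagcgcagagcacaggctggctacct

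The motifs were the STAT3-type TTCNNNGAA, the type II interleukin 6 response element CTGGGAA, the C/EBP-type TTGCNNAA and the NF-kB-type GGGNNNTTC, which leaves out the last base of the full motif. The first of them can contain the second. The C/EBP-type letters were in 5 of the 8 windows (Orm2, Orm3, Hpx, Lcn2 and Steap4), and in 9.56% of all 32851 promoter windows of the same length. STAT3-type letters were upstream of Itih4 and Steap4 (7.02% of all windows), CTGGGAA upstream of Lrg1 and Steap4 (9.1%), and NF-kB-type letters upstream of Lrg1 and Steap4 (11.8%). Steap4 was the only one of the 8 with all 4, and the Itih3 window had 0 matches. The Orm2 and Orm3 windows had the same base at 218 of 245 aligned positions (89%), and both carried their C/EBP-type match at about the same place, 120 to 113 bases before the start in Orm2 and 121 to 114 in Orm3. A match is a description of the letters and not a measured binding site.

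**Figure D1:**
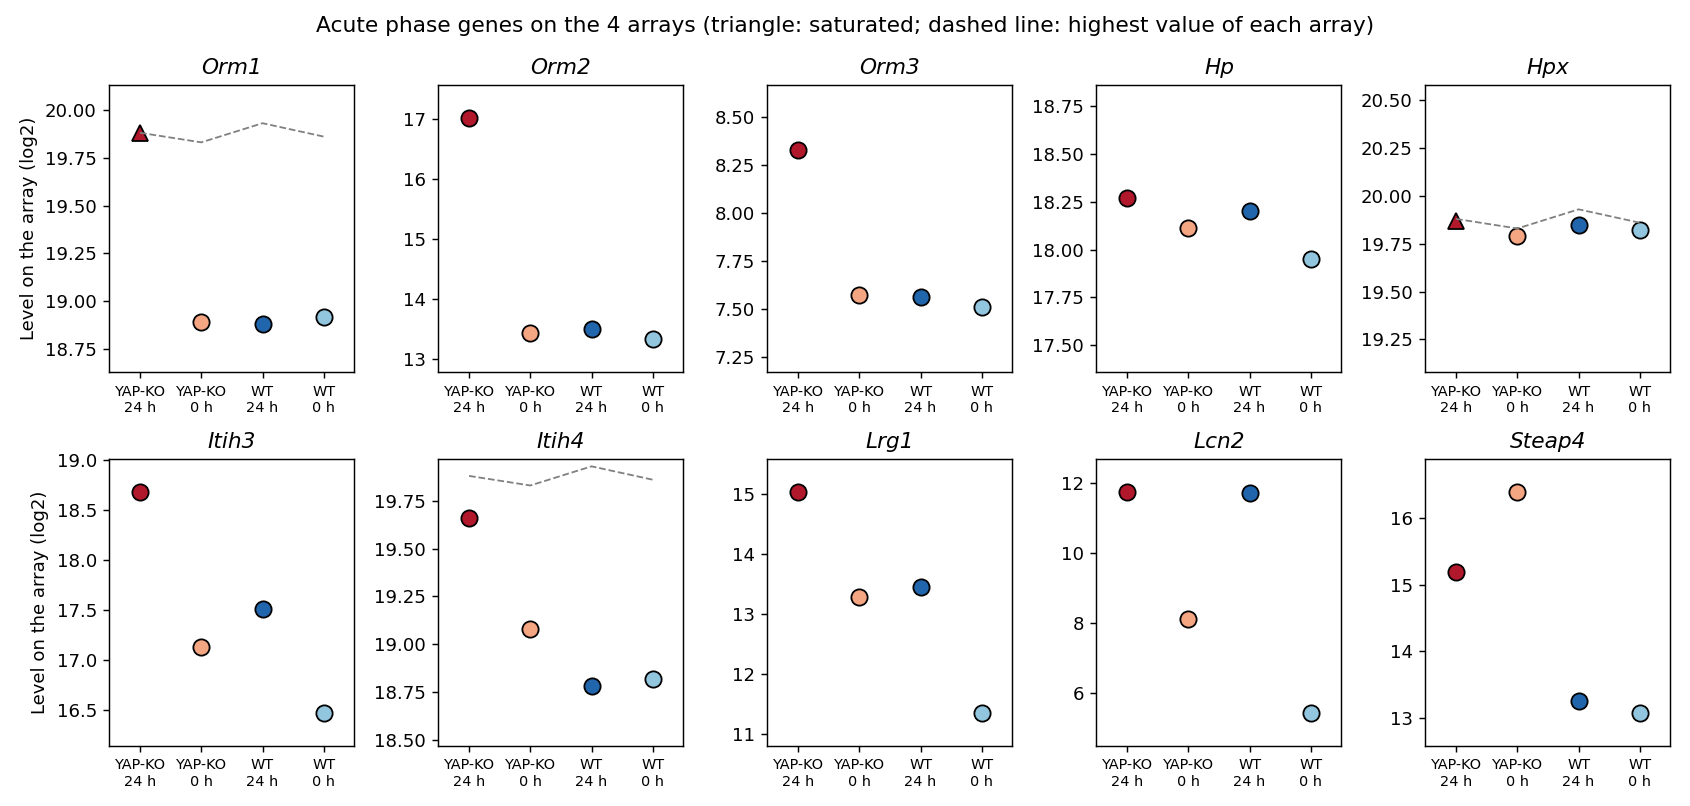
Log2 level of each gene on the 4 arrays, with 1 point per array and a separate vertical scale for each gene; triangles are saturated values, and the dashed line, drawn where it falls inside a panel, is the highest value of each array. The YAP-KO 24 h array has the top value of Orm1, Orm2 and Orm3, whose other 3 values lie together, Steap4 is high on both YAP-KO arrays, and Lcn2 is high on both 24 h arrays.

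The orosomucoid genes were higher on the YAP-KO 24 h array than on the other 3 arrays, which lay close together. Orm2 (Entrez gene 18406) read 17.01 in YAP-KO at 24 h and 13.44 in YAP-KO at 0 h, and 13.51 in wildtype at 24 h and 13.34 in wildtype at 0 h. The other 3 values lay close to one another. The 24 h difference was 3.57 in YAP-KO (11.9-fold) and 0.17 in wildtype, and at 24 h Orm2 was 3.5 higher in YAP-KO than in wildtype (11.3-fold). Only 0.0541% of the 18500 genes had a genotype difference at 24 h of that size or above. Before acetaminophen the genotypes differed by 0.10.

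Orm1 (18405) was saturated on the YAP-KO 24 h array. It read 19.88 there and 18.89 in YAP-KO at 0 h, and 18.88 in wildtype at 24 h and 18.92 in wildtype at 0 h. It was therefore at least 0.99 higher at 24 h than at 0 h in YAP-KO, and at least 1.0 higher in YAP-KO than in wildtype at 24 h. The wildtype difference between the times was -0.04. Since these levels lie 0.94 to 1.05 below the highest value of their arrays, no larger difference could have been read. Orm3 (18407) read 8.33 and 7.57 in YAP-KO at 24 h and 0 h, and 7.56 and 7.51 in wildtype at 24 h and 0 h, a difference of 0.76 in YAP-KO and 0.05 in wildtype. YAP-KO at 24 h was on top in all 3 genes, and the order of the other 3 arrays, which lay close together, differed from gene to gene. The genes are close paralogs and neighbours in the genome, and their probe sets may read each other's transcripts, so they may not be 3 separate observations.

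Haptoglobin and hemopexin levels were nearly level across the arrays. Hp (15439) read 18.27 in YAP-KO at 24 h and 18.11 in YAP-KO at 0 h, and 18.20 in wildtype at 24 h and 17.95 in wildtype at 0 h. All 4 values lay within 0.32, and 1.61 to 1.91 below the highest value of their arrays. The 24 h difference was 0.16 in YAP-KO and 0.25 in wildtype, and the genotype difference was 0.07 at 24 h and 0.16 at 0 h. Hpx (15458) read 19.87, a saturated value, in YAP-KO at 24 h, 19.79 in YAP-KO at 0 h, 19.85 in wildtype at 24 h and 19.82 in wildtype at 0 h. Every one of these was within 0.08 of the highest value on its array. An increase in Hpx could not have been seen.

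The inter-alpha-trypsin inhibitor heavy chains are secreted by hepatocytes, and several of them become linked to hyaluronan in the matrix. Itih3 (16426) read 18.68 in YAP-KO at 24 h and 17.13 in YAP-KO at 0 h, and 17.51 in wildtype at 24 h and 16.47 in wildtype at 0 h. The YAP-KO array was the higher of the pair at each time, and the 24 h array the higher of the pair in each genotype. The differences were 1.55 between times in YAP-KO, 1.04 between times in wildtype, 1.17 between genotypes at 24 h and 0.66 between genotypes at 0 h. Itih4 (16427), its neighbour in the genome, read 19.66 and 19.08 in YAP-KO at 24 h and 0 h, and 18.78 and 18.82 in wildtype at 24 h and 0 h. Its 24 h difference was 0.58 in YAP-KO and -0.04 in wildtype, and it was 0.88 higher in YAP-KO than in wildtype at 24 h. The YAP-KO 24 h level lay 0.22 below the highest value of that array, so compression near the ceiling cannot be told apart from a small difference.

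Lrg1, Lcn2 and Steap4 were higher in YAP-KO than in wildtype already at 0 h. Lrg1 (76905), which encodes a secreted modulator of transforming growth factor beta signalling, read 15.04 in YAP-KO at 24 h and 13.29 in YAP-KO at 0 h, and 13.46 in wildtype at 24 h and 11.36 in wildtype at 0 h. It was 1.58 higher in YAP-KO than in wildtype at 24 h and 1.93 higher at 0 h. Its 24 h differences were 1.75 in YAP-KO and 2.10 in wildtype, which differ by -0.35. The level in YAP-KO before acetaminophen was thus 0.17 below the level reached in wildtype at 24 h.

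Lcn2 (16819) had the widest range of the 10 genes, 6.31 over the arrays. It read 11.74 in YAP-KO at 24 h and 8.11 in YAP-KO at 0 h, and 11.70 in wildtype at 24 h and 5.43 in wildtype at 0 h. The 24 h levels of the genotypes were 0.04 apart, while at 0 h Lcn2 was 2.68 higher in YAP-KO than in wildtype (6.41-fold). The 24 h difference was accordingly 3.63 in YAP-KO (12.4-fold) and 6.27 in wildtype (77.2-fold). The wildtype 0 h level of 5.43 was dim, against a median of 4.47 over all probe sets of that array. The sizes of the differences taken from this level are therefore uncertain. The difference of the responses, -2.64, is the same arithmetic as the 0 h gap and holds no further information on the 24 h livers.

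Steap4 (117167) encodes a membrane enzyme that reduces iron and copper ions and responds to inflammatory cytokines. It read 15.19 in YAP-KO at 24 h and 16.39 in YAP-KO at 0 h, and 13.26 in wildtype at 24 h and 13.08 in wildtype at 0 h. Both YAP-KO arrays were above both wildtype arrays, by 1.93 at 24 h (3.81-fold) and by 3.31 at 0 h (9.92-fold). Among the 18500 genes, 0.0595% had a 0 h genotype difference of that size or above. Between the times Steap4 was 1.20 lower at 24 h than at 0 h in YAP-KO and 0.18 higher in wildtype. It was the 1 gene of the 10 with a lower level at 24 h in YAP-KO. Set against the wildtype 0 h array in place of the YAP-KO 0 h array, the YAP-KO 24 h level was 2.11 higher, so the sign of the YAP-KO difference rests on the YAP-KO 0 h pool.

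**Figure D2:**
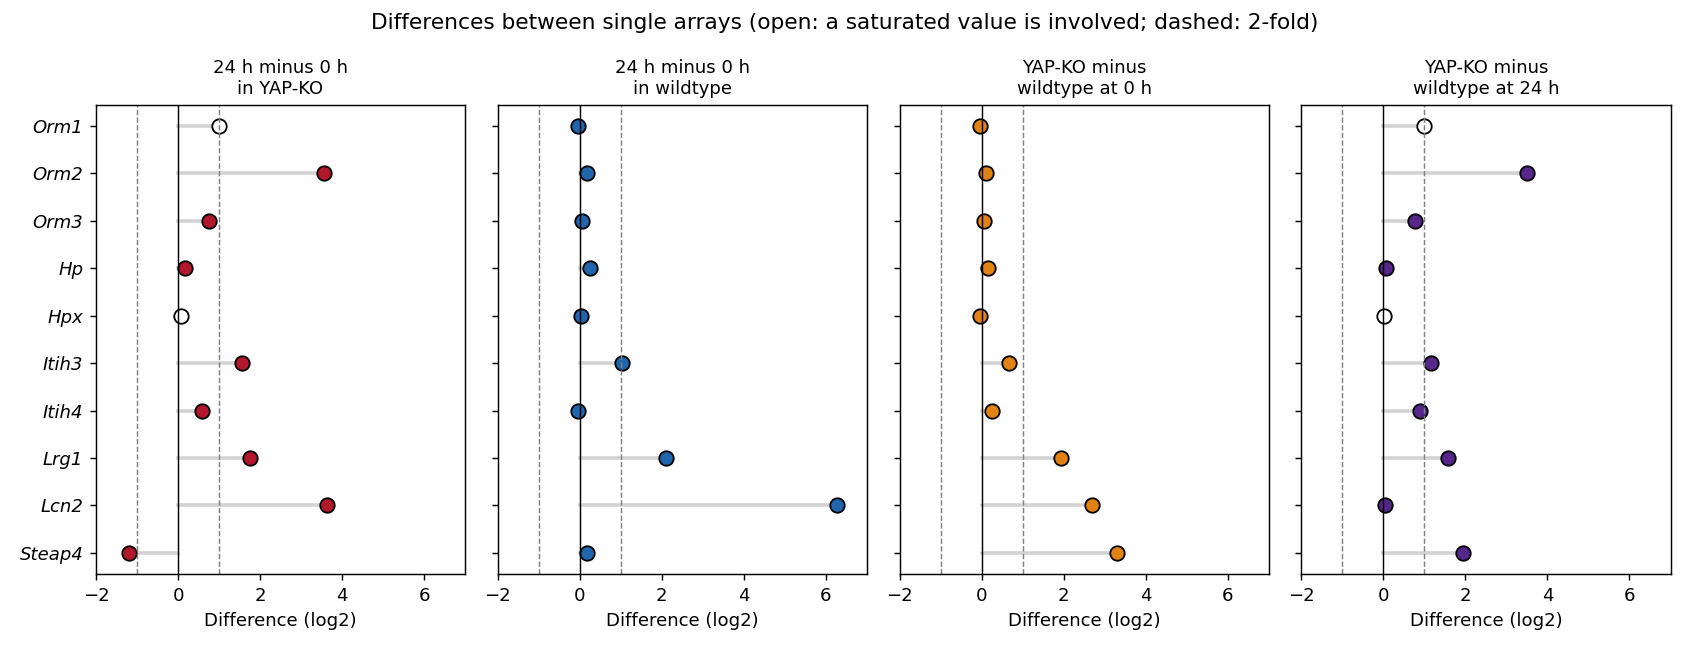
Log2 differences of the 10 genes in 4 comparisons of single arrays; open circles involve a saturated value and dashed lines mark 2-fold. The genes beyond 2-fold are Orm2, Itih3, Lrg1, Lcn2 and Steap4 (lower) in YAP-KO over time, Itih3, Lrg1 and Lcn2 in wildtype over time, Lrg1, Lcn2 and Steap4 between genotypes at 0 h, and Orm2, Itih3, Lrg1 and Steap4 between genotypes at 24 h, with Orm1 on the line.

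Between the genotypes 24 h after acetaminophen, the 9 genes other than Hpx read higher in YAP-KO, from 0.04 for Lcn2 to 3.5 for Orm2. Hpx was at least 0.02 higher. It was saturated in YAP-KO and 0.08 below the highest value in wildtype, too near the ceiling for a direction to be read. At or beyond 2-fold were 5 of 10 (Orm1 as a bound, Orm2, Itih3, Lrg1 and Steap4), where 3.23% of all 18500 genes were 2-fold or more higher in YAP-KO. Orm1 lay on the threshold: it was 0.99 after quantile normalization and 0.98 after centring of the arrays, and 4 genes were then counted. None of the 10 was 2-fold lower, where 5.73% of all genes were. The median over the 10 was 0.94, and 1.02 without the saturated Orm1 and Hpx, against -0.02 over all genes. Before acetaminophen 3 of 10 were 2-fold or more higher in YAP-KO (Lrg1, Lcn2 and Steap4), where 1.02% of all genes were, and 0 were lower (0.876% of all genes). The median at 0 h was 0.21, against -0.03 over all genes. Both genotype comparisons include Lrg1 and Steap4, while Lcn2 is in the 0 h count alone and Orm1, Orm2 and Itih3 in the 24 h count alone.

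Over the 24 h after acetaminophen, 4 of 10 genes were 2-fold or more higher in YAP-KO (Orm2, Itih3, Lrg1 and Lcn2), against 4.74% of all genes, and Steap4 was 2-fold lower, as were 2.22% of all genes. Orm1, at least 0.99 higher, was not counted, but reached 1.04 after centring, which made the count 5. In wildtype 3 of 10 were 2-fold or more higher (Itih3, Lrg1 and Lcn2), against 12.7% of all genes, and 0 were lower (5.88% of all genes). After quantile normalization Itih3 was 0.84 in wildtype and 2 genes were counted. The medians over the 10 were 0.88 in YAP-KO and 0.18 in wildtype, against 0.07 over all genes in both. Without the saturated Orm1 and Hpx they were 1.155 in YAP-KO and 0.215 in wildtype. In the difference of the responses, YAP-KO minus wildtype, Orm1 (1.03, holding a saturated value) and Orm2 (3.40) were 2-fold or more above 0, as were 5.66% of all genes. Lcn2 and Steap4 (-1.38) were 2-fold or more below 0, as were 7.49% of all genes. These contrasts share arrays with one another, so their values are not independent.

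**Figure D3:**
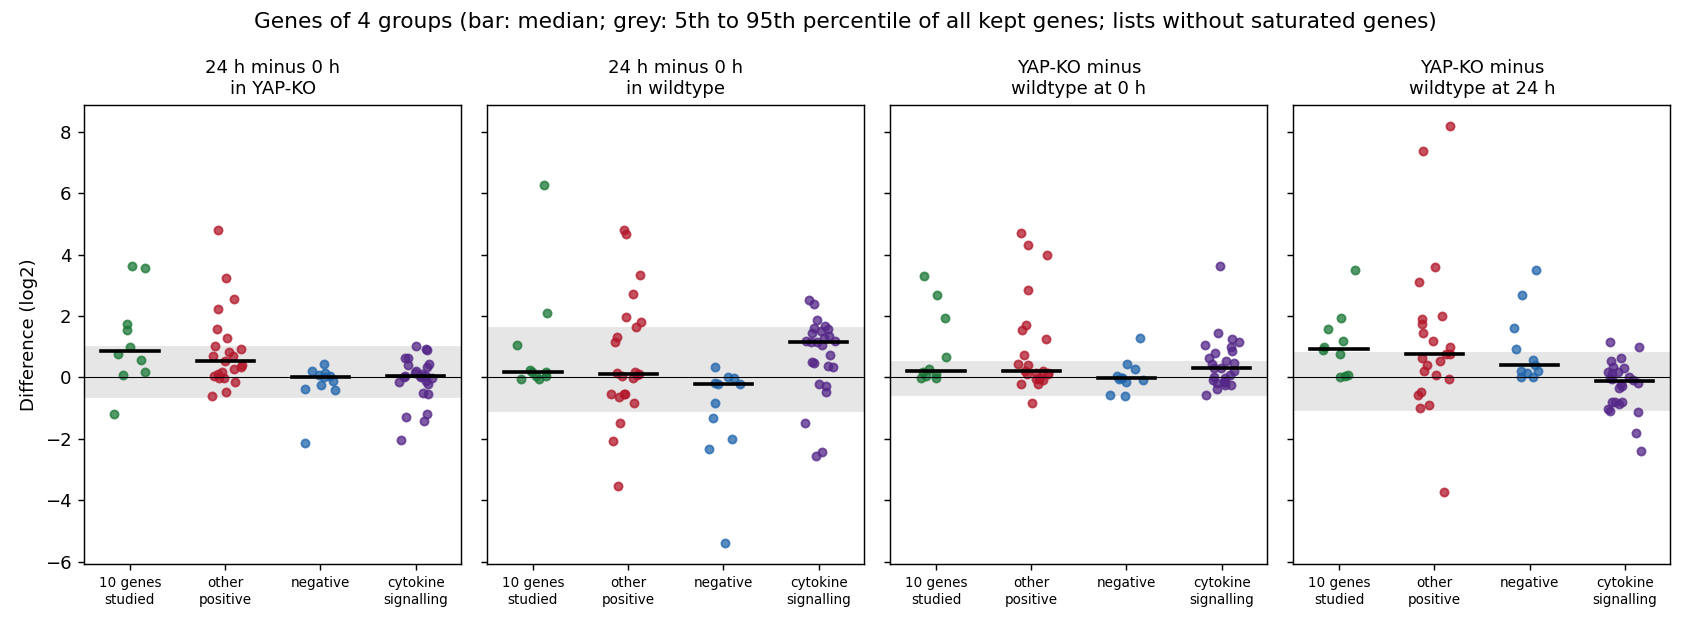
Log2 differences of the 10 genes and of 3 lists of related genes in 4 comparisons, with 1 point per gene, a bar at the median and a grey band for the 5th to 95th percentile of all 18500 genes; list genes with a saturated value on any array are left out, and all 10 genes studied are shown. The cytokine signalling genes have their highest median in wildtype over time (1.15), while the 10 genes (0.94) and the other positive acute phase genes (0.76) have theirs between genotypes at 24 h. Without the saturated Orm1 and Hpx, the highest median of the genes studied is in YAP-KO over time (1.155), above that between genotypes at 24 h (1.025).

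Other positive acute phase genes, 28 of 32 listed with a usable probe set, were split between the same comparisons. Between genotypes at 24 h, 9 of 28 were 2-fold or more higher in YAP-KO (3.23% of all genes) and 2 lower (5.73%), with a median of 0.76 over the 23 without a saturated value. The serum amyloid genes Saa2 (8.20) and Saa1 (7.36) led, with Saa4 (3.60), while Cd14, a lipopolysaccharide co-receptor gene of macrophages and injured hepatocytes, was lower (-3.73) and the transferrin receptor gene Tfrc was at -1.0. At 0 h 8 of 28 were 2-fold or more higher in YAP-KO (1.02% of all genes) and 0 lower (0.876%), with a median of 0.20. The metallothionein genes Mt2 (at least 6.25, as its YAP-KO value is saturated) and Mt1 (4.69) led, followed by Saa2 (4.31) and Saa1 (3.97). Saa1 and Saa2 were thus higher in YAP-KO already before acetaminophen, while Saa4 differed by 0.20 and C9 by -0.84. Over time, 7 were higher (4.74% of all genes) and 0 lower (2.22%) in YAP-KO (median 0.53), led by Apcs, the serum amyloid P gene (4.81). In wildtype 10 were higher (12.7% of all genes) and 3 lower (5.88%), with a median of 0.10. Mt2 (at least 6.35, as its wildtype 24 h value is saturated), Mt1 (4.79) and Cd14 (4.66) were high. Saa4 (-3.55), the C-reactive protein gene Crp (-2.07) and the complement gene C9 (-1.48) were low. The C-reactive protein gene responds little to inflammation in mice.

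Negative acute phase genes, whose products drop in plasma during inflammation, were all measured, but 6 of 17 were saturated on at least 1 array, among them Alb and Ttr. Over time 1 of 17 was 2-fold lower in YAP-KO (2.22% of all genes), which is near the background for a list of this size, and 4 of 17 were lower in wildtype (5.88% of all genes). In neither genotype was any of the 17 2-fold higher (4.74% of all genes in YAP-KO and 12.7% in wildtype). Serpina6, encoding corticosteroid-binding globulin, was -2.13 in YAP-KO and -5.39 in wildtype. Igfals (-0.11 in YAP-KO and -2.33 in wildtype) and Serpina7, the thyroxine-binding globulin gene (0.20 and -2.0 in the same order), followed. Between genotypes at 24 h 3 of 17 were 2-fold or more higher in YAP-KO (3.23% of all genes) and 0 lower (5.73%), and the median over the 11 unsaturated genes was 0.40. At 0 h 1 of 17 was 2-fold higher, Serpina7 (1.29), and 0 were lower, where 1.02% and 0.876% of all genes were.

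Genes listed for cytokine signalling to acute phase genes were mostly higher at 24 h in wildtype. The list holds inhibitors, such as the decoy receptor gene Il1r2, beside genes that carry the signal, so its counts do not measure signalling. In YAP-KO more of the listed genes were 2-fold lower than 2-fold higher, but at 1.5-fold 5 were higher and 4 lower. Of 33 listed, 26 had a usable probe set and passed the filter. In wildtype 15 of 26 were 2-fold or more higher at 24 h and 3 lower (median 1.15), where 12.7% of all genes were higher and 5.88% lower. In YAP-KO 1 was higher and 4 lower (median 0.04), where 4.74% of all genes were higher and 2.22% lower. The interleukin 1 decoy receptor gene Il1r2 (2.52) and the oncostatin M receptor gene Osmr (2.39) were high in wildtype, with Cebpa (-2.43) and the leukemia inhibitory factor receptor gene Lifr (-2.55) low. In YAP-KO the interleukin 1 receptor gene Il1r1 was -2.05, and the interleukin 6 receptor gene Il6ra was -1.19. At 0 h 6 of 26 were 2-fold or more higher in YAP-KO than in wildtype (1.02% of all genes) and 0 lower (0.876%). These included Il1r1 (3.64), the tumor necrosis factor receptor gene Tnfrsf1a (1.45), Stat3 (1.24) and Osmr (1.16). At 24 h 1 was higher (3.23% of all genes) and 5 were lower (5.73%) in YAP-KO, among them Il1r2 (-2.41) and Il1b (-1.80). Il6 itself, singled out after its values were seen, read 3.84 and 3.97 in YAP-KO at 24 h and 0 h, and 3.62 and 3.92 in wildtype at 24 h and 0 h, all below the filter level of 4.322.

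**Figure D4:**
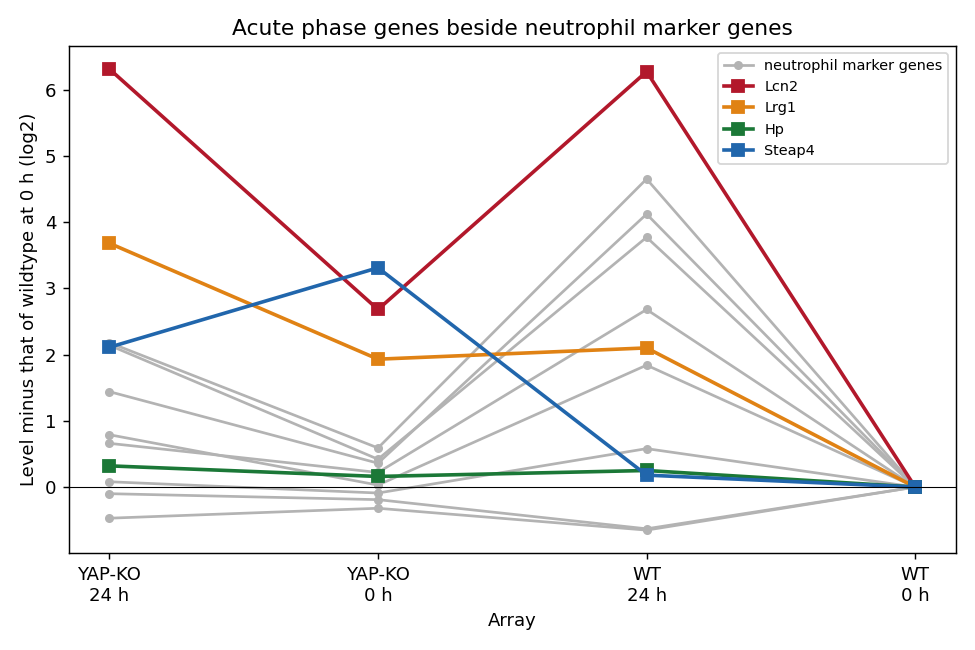
Log2 level of Lcn2, Lrg1, Hp and Steap4 (coloured) and of the 8 neutrophil marker genes past the filter (grey) on each array, each minus its own wildtype 0 h level; lines join the arrays of a gene and mark no order. At 24 h Lcn2 reads 11.74 in YAP-KO and 11.70 in wildtype, while 6 of the 8 markers are lower in YAP-KO than in wildtype and the other 2, Ly6g and Camp, are higher.

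Lcn2, Lrg1 and Hp are also made by neutrophils, so neutrophil markers were set beside them. Of 13 listed markers all had a probe set and 8 passed the filter. Over time 3 of the 8 were 2-fold or more higher in YAP-KO (4.74% of all genes) and 5 of the 8 in wildtype (12.7%). At 24 h 5 of the 8 were 2-fold or more lower in YAP-KO than in wildtype (5.73% of all genes). Ly6g and Camp went the other way: they were 0.53 and 0.18 higher in YAP-KO than in wildtype at 24 h, and their 24 h differences in wildtype were -0.63 and -0.65. S100a8 read 7.59 in YAP-KO and 10.06 in wildtype at 24 h, and 6.0 in YAP-KO and 5.41 in wildtype at 0 h. The log2 of the summed signal of all 13 was 9.62 in YAP-KO and 11.37 in wildtype at 24 h, and 8.76 in YAP-KO and 8.66 in wildtype at 0 h. The granule genes Mpo, Elane, Ltf, Ngp and Mmp9 were below the filter level on average. The part of neutrophils in the levels of Lcn2, Lrg1 and Hp was not tested. In whole liver RNA, fewer cells of a type and less RNA per cell cannot be told apart. At 0 h the neutrophil median was 0.12 higher in YAP-KO, beside 2.68 for Lcn2 and 1.93 for Lrg1. Of 10 monocyte and macrophage markers 10 passed the filter. At 24 h Cd14, Marco, Csf1r and Cd163, 4 of the 10, were 2-fold or more lower in YAP-KO than in wildtype (5.73% of all genes). Cd68 (-0.02) and Lyz2 (-0.01) were nearly level between the genotypes at 24 h, and Ccr2 was 0.46 higher in YAP-KO. At 0 h 0 of the 10 were 2-fold or more lower in YAP-KO (0.876% of all genes).

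Genes with the profile nearest to that of a member were looked up among 13167 kept genes without a saturated value, by the root-mean-square difference of the 4 array values after the mean of each gene was subtracted. Nearest to Orm2 were Derl3 (0.21 log2 units) and Sdf2l1 (0.32), both genes of the endoplasmic reticulum, with the chemokine gene Ccl24 (0.24) between them. Derl3 read 8.54 in YAP-KO at 24 h and 5.49 in YAP-KO at 0 h, and 5.29 in wildtype at 24 h and 5.34 in wildtype at 0 h. Lcn2 had less close neighbours: the cornified envelope gene Sprr1a (0.87), the actin gene Actg1 (0.94) and the keratin gene Krt18 (0.96). Steap4 was nearest to the bile acid transporter gene Slc10a2 (0.51), the stress gene Gadd45g (0.59) and the microRNA gene Mir290b (0.61). With 4 arrays such likeness is a description only.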

How the data were processed

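RNA from pooled mouse livers was measured on 4 single-channel arrays, labelled with biotin per the labels' protocols. The values used are those the authors deposited, 1 per probe set and array, on a log2 scale inferred from their range; the log base, summarisation, background correction and normalization are not given in the sources used here, and no detection calls were used. Of 65956 probe sets, 31388 were annotated to 1 gene, 1362 to several (not used for genes) and 33206 to none. Current RefSeq symbols (GRCm38.p6) were assigned by Entrez identifier. Each gene was taken from its brightest probe set, and genes at or above the 40th percentile of the mean (4.322) were kept. Differences between arrays were computed in Python 3.11.15 with pandas 2.3.3, and counted at 2-fold. With 1 array per group, no test was run. The counting code was tested on simulated data with assumed noise and no saturation, which does not show how reliable the counts are on these arrays. The number of arrays limits the precision.

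The members, the lists of related genes, the marker lists and the motifs were chosen with earlier results of these data known. The genes named are the members, Yap1, up to 4 genes of a list with the largest differences or against its median, and the 3 nearest profiles for Orm2, Lcn2 and Steap4. Other acute phase genes, relatives, receptors and partners were listed likewise. Genes of these lists without a usable probe set were not analysed here. Alternatives were another scaling, filter, probe-set rule, saturation limit, fold or 0 h array. Upstream sequences came from RefSeq tables and were aligned with Biopython 1.88.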

Additional observations from a re-analysis of the deposited data

Results flagged for a closer look

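The 24 h differences of Steap4, Orm1 and Itih4 had opposite signs in the genotypes, in Orm1 and Itih4 through a wildtype value of only -0.04. Each came from 1 array per group, so that the difference between the responses was not tested. The share of all genes with opposite signs is not given here, so the number of such genes is not read as a result about the 10. Steap4 was lower at 24 h in YAP-KO (-1.20) and higher in wildtype (0.18), a difference of responses of -1.38. Orm1 was higher in YAP-KO (at least 0.99, as its 24 h value is saturated) and at -0.04 in wildtype, a difference of 1.03. Itih4 was 0.58 higher in YAP-KO and at -0.04 in wildtype, a difference of 0.62. After centring of the arrays on their medians the wildtype differences of Orm1 and Itih4 both turned to 0.06, so that of the 3 genes Steap4 alone (-1.15 in YAP-KO and 0.28 in wildtype) still ran in opposite directions.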

How the results depend on the processing

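No paired analysis was possible because each group has 1 array. Quantile normalization and centring of the arrays on their medians moved no difference of a member by more than 0.26 and the median of all genes by at most 0.10, and no member called at 2-fold changed sign under them. Calls near the threshold did move: quantile normalization took the members 2-fold higher in wildtype at 24 h to 2, without Itih3 (0.84), and Orm1 crossed the threshold in 3 comparisons (1.04 over time in YAP-KO, 0.98 between genotypes at 24 h and 0.98 in the difference of responses after centring). The filters on dim genes (none or 60th percentile) and the mean of probe sets could not move any of the 50 member differences. A filter does not enter a member's difference, and no member has several probe sets, so these settings are no check on the members. With the wildtype 0 h array as baseline, 0 members were 2-fold lower in YAP-KO at 24 h (562 of the 18500 genes were) and the median was 1.53. Steap4 turned to 2.11. With the YAP-KO 0 h array as baseline, 1 member was 2-fold higher in wildtype at 24 h (Lcn2, 3.59) and 1 lower (Steap4, -3.13). Of all 18500 genes 2247 were higher and 868 lower with that baseline. For the difference of responses, the members 2-fold above 0 numbered 1 after centring, 1 without saturated members and 1 with saturation taken as within 0.1. Orm1 was then at the limit or left out. At 1.5-fold 4 members were above 0, as were 2549 of the 18500 genes. At 4-fold 2 members were higher and 0 lower in YAP-KO at 24 h, where 94 and 56 of the 18500 genes were. Between genotypes at 24 h 1 member was 4-fold higher in YAP-KO, as were 104 of all genes. In the difference of responses 1 was above and 1 below 0 at 4-fold, where 173 and 281 of all genes were. Counts over all genes stayed within 1.5 times under every setting but those of the fold itself. Saturation limits Orm1, Hpx and Itih4, and dim genes have no known floor.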

Other observations

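Of 8 other genes of the inter-alpha-trypsin inhibitor and STEAP families and their partners, 0 were 2-fold away from 0 over time in YAP-KO (4.74% of all genes were higher and 2.22% lower) or between genotypes at 0 h (1.02% and 0.876%). In wildtype 2 were 2-fold higher at 24 h, where 12.7% of all genes were, so that these counts are near the background for a list of this size: Steap1, a metalloreductase family gene that was dim (5.37 at 24 h, against 4.05 at 0 h), and Itih5 (1.17). Between genotypes at 24 h Itih1, next to Itih3 in the genome, was 1.27 higher in YAP-KO, and Itih5 was at -1.23.

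Among receptors and partners of the member proteins, 8 of 12 had a usable probe set and passed the filter. Hmox1, the heme oxygenase gene that acts on the heme hemopexin delivers, read 9.96 in YAP-KO and 12.68 in wildtype at 24 h, and 8.40 in YAP-KO and 7.39 in wildtype at 0 h. Lrp1, the hemopexin receptor gene, read 14.35 in YAP-KO and 12.58 in wildtype at 24 h, and 14.02 in YAP-KO and 14.07 in wildtype at 0 h. Cd163, the gene of the macrophage receptor for haptoglobin and haemoglobin complexes, differed by -1.06 between YAP-KO and wildtype at 24 h and by -0.01 at 0 h.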
